A study of Mus musculus with 51 samples.

Results

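The Gnas complex locus was taken by position as 150 windows of 1 kb on chromosome 2 (GRCm38) of the 2462755 windows that carried total signal, from upstream of Mir296 (174267047) to well beyond the end of Gnas (174346744). It held 18 of the 150793 peaks in the allelic read count tables of the series. Of these peaks, 8 were H3K4me3 peaks, 8 were H3K27me3 peaks and 2 were H3K36me3 peaks. The chromatin came from mouse embryos at embryonic day 6.5, dissected into epiblast and extra-embryonic ectoderm (ExE), and was profiled by ultra low-input native ChIP-seq. Every embryo was a hybrid with 1 parent of the CAST/Ei strain (CAST). B6/CAST had a C57BL6/Babr mother and a CAST father, CAST/B6 had the reverse, and both are called wild-type below. In matDKO/CAST the father was CAST and the mother, of mixed B6/129 background, carried floxed Dnmt3a and Dnmt3b alleles and a Zp3-cre transgene that acts in the growing oocyte, so that the oocyte lacked the enzymes that set its DNA methylation. These embryos were heterozygous for both deletions, and strain background and maternal genotype cannot be told apart in them. There were 2 libraries for each of 18 combinations of cross, tissue and mark, each from a pool of embryos. In the authors' protocol 1 chromatin sample supplied all 3 antibodies and its input. In some groups the replicate numbers differed between marks, so the 2 libraries of each mark need not come from the same pools.

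Gnas encodes the stimulatory G protein alpha subunit, which couples hormone receptors to adenylyl cyclase, and is a textbook imprinted locus with transcripts of opposite parental origin. Its alternative first exons give the maternally expressed Nesp transcript, the paternally expressed Gnasxl transcript and the paternally expressed non-coding exon 1A transcript, while transcription from exon 1 is biallelic in most tissues. Nespas is a paternally expressed antisense RNA that starts between the Nesp and Gnasxl exons and runs back across Nesp. DNA methylation inherited from the oocyte covers the Nespas and Gnasxl starts and exon 1A on the maternal chromosome. H3K4me3 marks active promoters, H3K27me3 is placed by Polycomb at silent ones, and H3K36me3 is laid down along transcribed gene bodies.

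In the GENCODE vM21 annotation, Gnas (ENSMUSG00000027523) lay on the forward strand from 174284320 to 174346744 and Nespas (ENSMUSG00000086537) on the reverse strand from 174281237 to 174295436. The microRNA genes Mir296 and Mir298 and 4 unnamed gene models completed the annotation, and no gene was annotated in the locus past the end of Gnas. Transcript starts of both genes, joined where they lay within 1 kb, gave 7 start regions, which took in 1 kb on either side. They are called, from left to right, Nesp (174283320 to 174286435, which also holds an inner Nespas transcript start), Nespas (174294389 to 174296436), Gnasxl (174296859 to 174298859), exon 1A (174326570 to 174329023) and exon 1 (174329006 to 174331287), followed by 2 internal starts near the end of the gene. Each region was read as all the 1 kb windows that it touched. Nespas and Gnasxl therefore share a window, as do exon 1A and exon 1, and their values are not independent.

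The 3 Gnas promoters below, from RefSeq (GRCm38.p6, forward strand, 250 bases before the start to 50 after it), are shown because the marks described here behaved differently at each of them. Nesp is at chr2:174284070-174284369, exon 1A at chr2:174327499-174327798 and exon 1 at chr2:174329756-174330055. Capitals mark CpG dinucleotides, the sites of DNA methylation.
Nesp: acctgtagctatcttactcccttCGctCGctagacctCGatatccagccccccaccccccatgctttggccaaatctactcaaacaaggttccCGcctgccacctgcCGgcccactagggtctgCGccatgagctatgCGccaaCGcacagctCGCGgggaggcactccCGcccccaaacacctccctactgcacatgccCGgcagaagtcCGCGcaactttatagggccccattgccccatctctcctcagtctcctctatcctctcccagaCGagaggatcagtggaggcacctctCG
exon 1A: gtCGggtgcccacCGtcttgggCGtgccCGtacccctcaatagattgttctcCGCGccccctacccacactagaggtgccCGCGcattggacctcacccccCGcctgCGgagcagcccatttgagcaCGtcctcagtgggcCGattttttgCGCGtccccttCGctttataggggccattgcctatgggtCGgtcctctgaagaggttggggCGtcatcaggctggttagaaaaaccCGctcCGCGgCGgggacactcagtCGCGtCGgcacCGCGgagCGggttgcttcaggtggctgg
exon 1: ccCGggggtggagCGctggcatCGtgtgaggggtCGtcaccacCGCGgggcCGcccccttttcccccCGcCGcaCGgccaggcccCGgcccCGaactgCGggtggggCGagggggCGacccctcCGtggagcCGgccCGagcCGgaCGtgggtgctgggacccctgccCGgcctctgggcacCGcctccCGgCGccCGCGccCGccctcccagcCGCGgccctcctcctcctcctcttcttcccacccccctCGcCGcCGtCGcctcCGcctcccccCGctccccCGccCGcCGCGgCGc
The Nesp window held 16 CpGs, exon 1A held 27 and exon 1 held 40, against a median of 7 over 32851 promoter windows of the same length. Of those windows, 33.0% held at least as many as Nesp, 15.5% as many as exon 1A and 3.91% as many as exon 1. The hexamer TGCCGC, the core of the ZFP57 binding motif, was searched on both strands (reverse complement GCGGCA) and had no match in these 3 windows. It was present in 11.6% of all promoter windows. Nespas and Gnasxl had no entry in the promoter table.

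Total reads over the 1 kb windows ranged from 2.29 M to 24.3 M in the 36 ChIP libraries and from 8.04 M to 99.7 M in the 15 inputs. Over all autosomal peaks of a table, 47.4 to 51.2% of allelic reads were paternal in the wild-type libraries and 44.2 to 48.9% in matDKO/CAST, so that shares in matDKO/CAST tended slightly to the maternal side across the genome. Input signal at the 7 start regions lay between 0.233 and 0.694 RPKM (reads per kilobase and per 1 M reads of the library) in every library. As a check of the dissection, H3K4me3 at marker gene starts was compared between all epiblast and all ExE libraries, matDKO/CAST included. At 4 of 6 epiblast genes it was higher in every epiblast library than in any ExE library (Pou5f1 averaged 43.6 against 7.79 RPKM), and Dppa4 went the opposite way. Elf5 and Cdx2, 2 of 7 ExE genes, separated in favour of ExE, and the other 5 overlapped, of which Esrrb (means of 10.1 RPKM in epiblast and 5.97 in ExE) and Eomes (41.0 and 36.6) had the lower mean in ExE. Of 7 visceral endoderm genes, 3 (Ttr, Apoa1 and Apob) were higher in every ExE library than in any epiblast library, with means of 6.87, 7.64 and 10.3 RPKM in ExE, and their part in the tissue differences below was not tested.

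**Figure D1:**
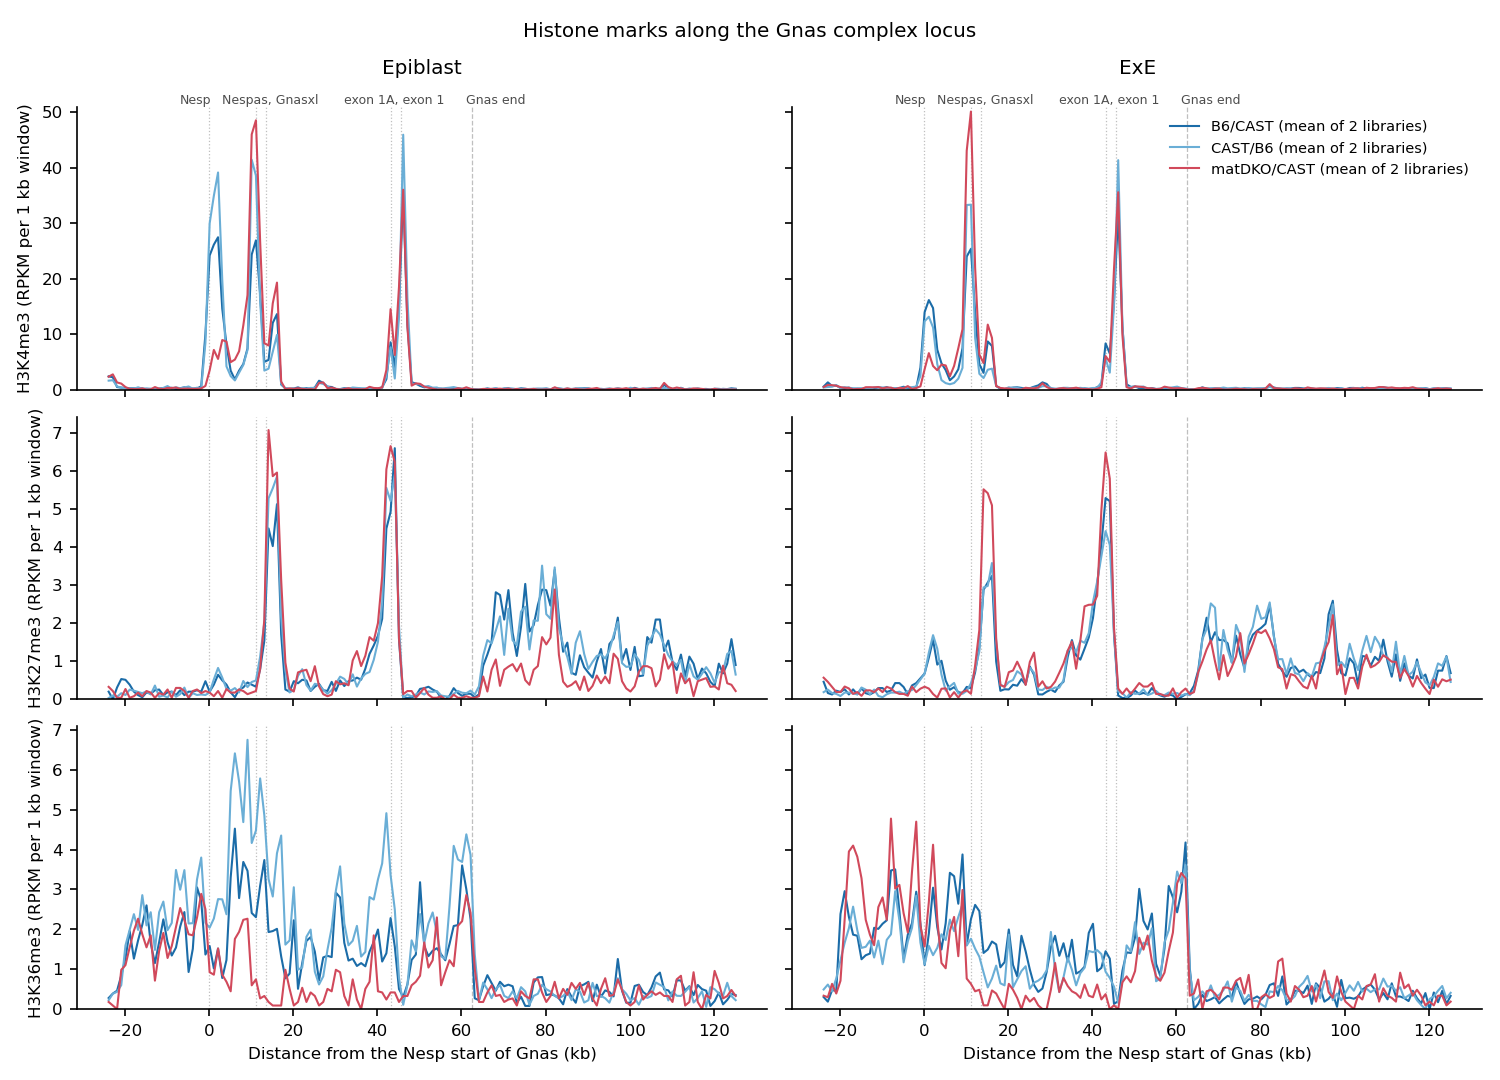
Signal in 1 kb windows (RPKM) across the locus for H3K4me3, H3K27me3 and H3K36me3 (rows) in epiblast and ExE (columns), as the mean of 2 libraries per cross, against the distance in kb from the Nesp start. Dotted lines mark transcript starts and the dashed line the end of Gnas. H3K4me3 stood at the 5 starts, with the Nesp peak reduced in matDKO/CAST, H3K27me3 at Gnasxl, exon 1A and downstream of Gnas, and H3K36me3 from upstream of Nesp to the end of Gnas, with low signal in matDKO/CAST between Nespas and exon 1.

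The marks divided the locus into compartments. H3K4me3 formed 1 peak of 19.5 kb (174282500 to 174302000) in both tissues that covered the Nesp, Nespas and Gnasxl starts together, and another of 11.5 kb over exon 1A and exon 1. H3K27me3 peaks lay at Gnasxl and exon 1A in both tissues and over the gene-free stretch downstream of Gnas (from 174349000, over 51 kb in epiblast and 66 kb in ExE). In ExE there was a further H3K27me3 peak at Nesp (174284000 to 174289000), and in epiblast a small one at the right edge (174406000 to 174409500). H3K36me3 formed 1 peak of 84.5 kb in each tissue, from 174263000 in epiblast and 174263500 in ExE to just past the end of Gnas. Of the 18 peaks, 16 had at least 20 reads on 1 allele in some wild-type library and were tested for parental bias. The others were intronic H3K4me3 peaks with at most 15 such reads.

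The first comparison asked which peaks favoured 1 parental chromosome in wild-type embryos. A peak was called imprinted where edgeR's quasi-likelihood test (Benjamini-Hochberg adjusted p under 0.05 over all informative autosomal peaks of the table) favoured the same parent in both reciprocal crosses, which separates parent from strain. By this rule 9 of the 16 tested peaks were imprinted, namely 1 for H3K4me3, 7 for H3K27me3 and 1 for H3K36me3. Among all informative peaks the rule called 0.108% in epiblast and 0.319% in ExE for H3K4me3, 0.325% and 1.35% for H3K27me3, and 0.0632% and 0.251% for H3K36me3. In a joint fit of both crosses with a term for the strain of the allele, the same 9 peaks had a parent effect, against 0.197% and 0.711%, 0.751% and 7.27%, and 0.153% and 0.589% of all peaks in the same order. Neighbouring compartments went opposite ways. H3K27me3 was paternal at Gnasxl and exon 1A and maternal at Nesp and downstream of Gnas.

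At the Nesp, Nespas and Gnasxl H3K4me3 peak, ExE was paternally biased and epiblast was not called. In ExE the paternal share of allelic reads was 72.0 and 65.6% in the B6/CAST libraries (814 paternal and 362 maternal reads in all) and 68.8 and 67.6% in CAST/B6 (570 and 266 reads). In epiblast it was 52.8 and 59.7% in B6/CAST and 49.6 and 58.4% in CAST/B6, from 1565 and 1131 allelic reads. The ExE libraries all lay above the epiblast libraries. The log2 ratio of paternal to maternal reads was 1.12 ± 0.09 (SE) in ExE (joint edgeR fit, adjusted p 1.82e-14) and 0.29 ± 0.13 in epiblast (unadjusted p 0.0392, adjusted p 1.00). Since the peak spans a maternally and 2 paternally active starts, its share averages over them. The difference in bias between the tissues was 0.86 ± 0.18 and narrowly missed the threshold (edgeR adjusted p 0.0621). With the library as a block, which pairs the alleles of 1 library, it was 0.91 (adjusted p 3.46e-08). Over all peaks present in both tissues, this test of a tissue difference called 0.0525% for H3K4me3.

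The exon 1A and exon 1 H3K4me3 peak and the peak at the left edge of the locus showed no called bias. At the former, the paternal share was 55.4 and 63.9% in B6/CAST epiblast, 53.6 and 55.7% in CAST/B6 epiblast, and 44.9 to 55.9% over the 4 wild-type ExE libraries. Its log2 ratio was 0.39 ± 0.18 in epiblast (joint edgeR fit, adjusted p 1.00) and 0.07 ± 0.12 in ExE (adjusted p 0.997). Exon 1, the start of the biallelic Gnas transcript, carried 16.5 to 28.1 RPKM of H3K4me3 in the wild-type libraries and exon 1A 5.41 to 8.42, so this share averages over starts of unequal level.

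H3K27me3 at the Gnasxl start, the promoter of a paternally expressed long form of the G protein subunit, lay mainly on the paternal chromosome in both tissues. In epiblast its paternal share was 77.9% ± 8.48 (SD, n = 2) in B6/CAST and 88.5% ± 4.27 in CAST/B6, and in ExE it was 87.2% ± 0.919 and 91.0% ± 2.43. All 8 wild-type libraries lay above 70%, with the lowest at 71.9%. The joint log2 ratio was 2.43 ± 0.30 in epiblast (edgeR adjusted p 9.94e-06) and 3.14 ± 0.23 in ExE (1.43e-32). These shares rest on 63 to 166 allelic reads per cross and tissue. Without B6/CAST epiblast replicate 2 the B6/CAST test alone was no longer called in epiblast (log2 ratio 1.51, edgeR adjusted p 0.101), nor was it with all libraries under DESeq2 (1.96, adjusted p 0.447) or with a minimum of 20 reads in each cross (edgeR adjusted p 0.0683).

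H3K27me3 at exon 1A was also paternal. In epiblast the 4 wild-type libraries had paternal shares of 87.5, 93.6, 87.0 and 87.5%, and the joint log2 ratio was 3.03 ± 0.25 (edgeR adjusted p 1.16e-08). In ExE the shares were 77.0 and 74.5% in B6/CAST and 83.9 and 84.0% in CAST/B6, with a log2 ratio of 2.05 ± 0.15 (adjusted p 4.09e-30). The 4 epiblast shares all exceeded the 4 ExE shares. The test of the tissue difference gave a log2 difference of -0.97 ± 0.32 and was not called (edgeR unadjusted p 0.00462, adjusted p 0.512). In ExE, the H3K4me3 and the H3K27me3 peak that covered the Gnasxl start were both paternal. The H3K4me3 peak also covers Nesp and Nespas, so the allelic share of H3K4me3 at Gnasxl alone is not known.

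Nesp, the start of the maternally expressed transcript, had the reverse arrangement of H3K27me3. In ExE its maternal and paternal reads were 25 and 2 in B6/CAST replicate 1, 13 and 3 in replicate 2, 48 and 1 in CAST/B6 replicate 1 and 15 and 2 in replicate 2. Every library was thus strongly maternal, and pooled paternal shares were 11.6% in B6/CAST and 4.55% in CAST/B6. The joint log2 ratio was -3.62 ± 0.41 (edgeR adjusted p 1.23e-14). With at most 49 reads per library the size of the bias is loosely fixed, and without B6/CAST ExE replicate 1 the B6/CAST test was not called (log2 ratio -2.05, edgeR adjusted p 0.228). DESeq2 gave no adjusted p for this peak in either cross.

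Downstream of Gnas, where no gene is annotated, H3K27me3 favoured the maternal chromosome over the 51 kb of the epiblast peak and the 66 kb of the ExE peak. In epiblast the B6/CAST paternal share was 26.5% ± 0.678 and that of CAST/B6 28.7% ± 0.444 (n = 2 each, 872 and 1055 allelic reads). The ExE shares were 34.7% ± 3.61 for B6/CAST and 45.1% ± 1.99 for CAST/B6 (1150 and 1607 reads). All epiblast values lay below all ExE values. The joint log2 ratio was -1.35 ± 0.12 in epiblast (edgeR adjusted p 2.81e-08) and -0.58 ± 0.07 in ExE (9.10e-13), and their difference of 0.78 ± 0.13 was called (adjusted p 0.000161, against 0.417% of the H3K27me3 peaks tested for such a difference). The CAST/B6 test alone was no longer called without CAST/B6 replicate 1, at -1.3 in epiblast (edgeR adjusted p 0.0558) and -0.23 in ExE (0.357), and in ExE DESeq2 did not call it with all libraries (-0.31, adjusted p 0.175). A strain effect of -0.26 ± 0.07 in favour of the B6 allele was called at this peak in ExE (edgeR adjusted p 0.00315). The right-edge peak in epiblast had paternal shares of 30.3 to 46.2% and was not called (-0.82 ± 0.28, edgeR adjusted p 0.371). The longer ExE downstream peak takes in that stretch, so the tissue difference compares unequal intervals.

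H3K36me3 over the gene body was maternal in epiblast and near balance in ExE. The paternal share was 39.4 and 38.7% in B6/CAST epiblast and 33.5 and 34.7% in CAST/B6 epiblast, from 661 and 1140 allelic reads. In ExE the shares were 44.5 and 45.3% in B6/CAST and 48.3 and 49.3% in CAST/B6, and the tissues did not overlap. The joint log2 ratio was -0.80 ± 0.08 in epiblast (edgeR adjusted p 1.64e-15) and -0.18 ± 0.09 in ExE (0.819). The difference between the tissues was 0.62 ± 0.12 (adjusted p 0.000665, against 0.0822% of the H3K36me3 peaks tested). Without B6/CAST epiblast replicate 2 neither the B6/CAST bias in epiblast (-0.56, edgeR adjusted p 0.411) nor the tissue difference (0.61, 0.0597) was called. With all libraries, DESeq2 called neither of them (-0.58, adjusted p 1.00, and 0.62, adjusted p 0.0615). The peak covers transcripts of both parental origins, so its share too is an average along the locus.

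**Figure D2:**
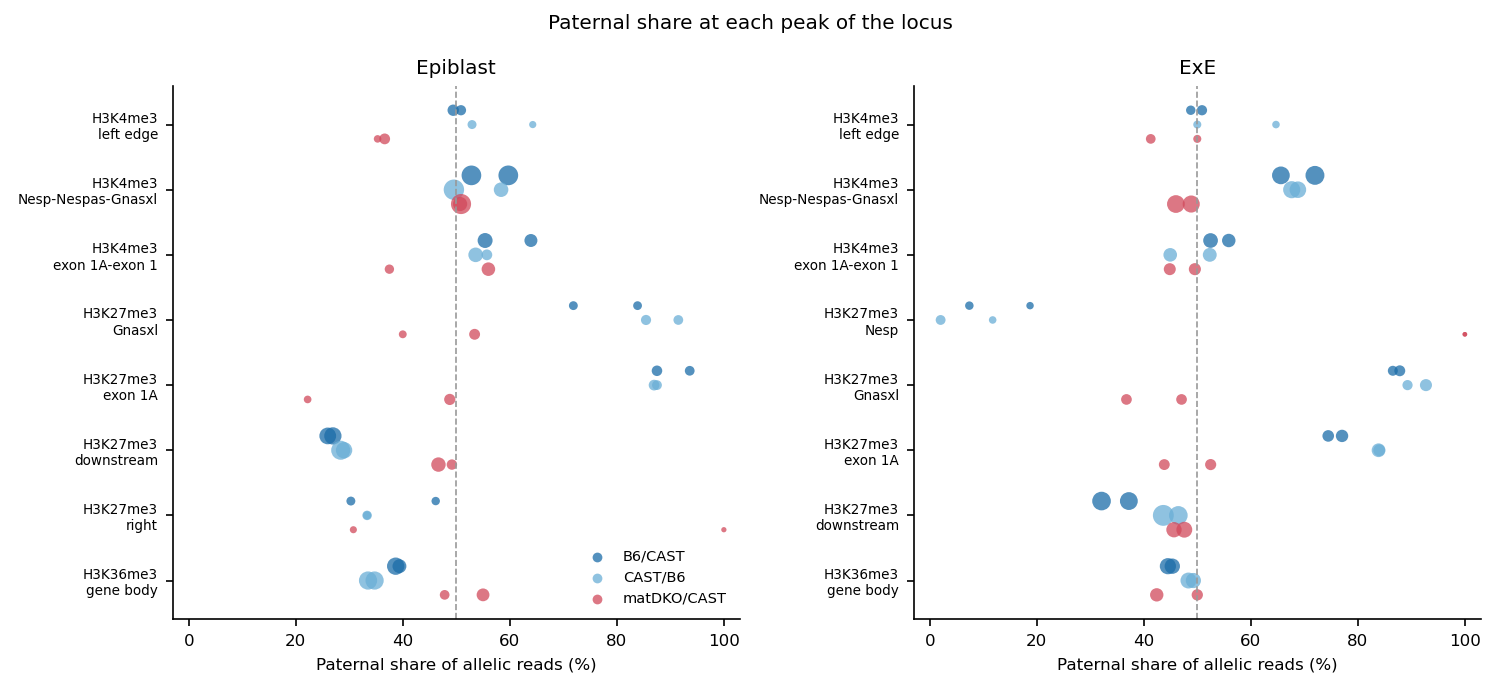
Paternal share of allelic reads (%) in every library at the tested peaks of the locus, in epiblast (left) and ExE (right). Points are coloured by cross, their size grows with the number of allelic reads, and the dashed line is at 50%. Wild-type H3K27me3 was paternal at Gnasxl and exon 1A (71.9 to 93.6%) and maternal at Nesp and downstream (2.04 to 46.5%), and most matDKO/CAST points lay near the dashed line.

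The next comparison asked whether the parental bias depended on the maternal Dnmt3a and Dnmt3b, by testing the difference in bias between matDKO/CAST and B6/CAST, which have the same direction of strains. It was called at 6 of the 16 tested peaks, 1 for H3K4me3 and 5 for H3K27me3, and in each the matDKO/CAST value was nearer to balance. Over all tested peaks the call rate was 0.674% in epiblast and 0.892% in ExE for H3K4me3, 0.179% and 0.742% for H3K27me3, and 0.163% and 0.363% for H3K36me3. None of the 16 peaks had a bias in matDKO/CAST that passed the test by itself (edgeR, smallest unadjusted p 0.0587).

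At the H3K4me3 peak over Nesp, Nespas and Gnasxl in ExE the paternal share was 46.0 and 48.9% in the matDKO/CAST libraries (452 paternal and 503 maternal reads), below all 4 wild-type ExE libraries. The log2 ratio was lower than in B6/CAST by 1.24 on the log2 scale (estimate -1.24 ± 0.23, edgeR adjusted p 0.00805). The call was lost without B6/CAST ExE replicate 1 (-1.04, adjusted p 0.786) and without replicate 2 (-1.47, 0.130). In those fits the lone library is assumed to vary like the others. In epiblast the matDKO/CAST shares were 50.9 and 50.7% and the difference was -0.27 ± 0.25 (edgeR adjusted p 1.00).

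The paternal excess of H3K27me3 at Gnasxl and exon 1A, promoters methylated in the oocyte, was smaller in matDKO/CAST, and the difference was called at exon 1A in both tissues and at Gnasxl in ExE. At Gnasxl in ExE the matDKO/CAST libraries had paternal shares of 36.8 and 47.1%, and the difference from B6/CAST was -3.06 ± 0.44 (edgeR adjusted p 7.16e-08). At Gnasxl in epiblast they had 53.4 and 40.0%, also below every wild-type library, but the difference of -1.70 ± 0.58 was not called (unadjusted p 0.00667, adjusted p 0.922). At exon 1A in epiblast the shares were 48.8 and 22.2% and the difference -3.49 ± 0.57 (edgeR adjusted p 0.00126), which was not called without matDKO/CAST replicate 1 (-4.76, 0.0620). At exon 1A in ExE the shares were 52.5 and 43.8% and the difference -1.57 ± 0.34 (edgeR adjusted p 0.00261). That call was lost without B6/CAST replicate 1 (-1.44, 0.312) or matDKO/CAST replicate 3 (-1.26, 0.214), and under DESeq2 with all libraries (-1.57, adjusted p 0.195).

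The maternal excess of H3K27me3 downstream of Gnas was smaller too. In epiblast the matDKO/CAST libraries had paternal shares of 46.7 and 49.2%, against at most 29.0% in the wild-type libraries, and the difference was 1.52 ± 0.32 (edgeR adjusted p 0.0253). It was not called without matDKO/CAST replicate 1 (1.69, 0.940) or replicate 2 (1.44, 0.760), or under DESeq2 with all libraries (1.53, adjusted p 0.0962). In ExE the shares were 47.6 and 45.6% and the difference 0.91 ± 0.18 (edgeR adjusted p 0.000575), not called without B6/CAST replicate 1 (0.76, 0.415) or matDKO/CAST replicate 2 (0.77, 0.0927). These ExE shares overlapped those of CAST/B6. At the Nesp H3K27me3 peak in ExE, only 2 paternal and 0 maternal reads were left in both matDKO/CAST libraries together, which is too few for a share. For H3K36me3 the matDKO/CAST shares were 47.8 and 55.0% in epiblast, above all wild-type values, and the difference of 0.88 ± 0.27 was not called (edgeR unadjusted p 0.00142, adjusted p 0.402).

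Shares do not tell which chromosome gained or lost a mark, so total signal was compared next. In pooled tissue, fewer cells with a mark and less of it per cell cannot be told apart. Over merged peaks, tested by limma on log2(RPKM + 0.5), no peak of the locus differed in total signal between matDKO/CAST and B6/CAST (smallest adjusted p 0.0749). The limma fit had unadjusted p-values under 0.05 at 7 of 18 such tests, and edgeR on whole reads called 3 H3K27me3 tests and 1 H3K36me3 test. Over all peaks edgeR on whole reads called 1.1% in epiblast and 0.944% in ExE for H3K27me3, 0.126% and 4.13% for H3K36me3, and 0.139% and 0.241% for H3K4me3. The limma fit called 0.447% in epiblast and 0.171% in ExE for H3K4me3, 0.0819% and 0.00482% for H3K27me3, and 0.0% and 0.00573% for H3K36me3. The 19.5 kb H3K4me3 peak was 12.6 and 11.1 RPKM in B6/CAST epiblast and 14.6 and 10.8 in matDKO/CAST epiblast, with overlapping libraries. As it spans several starts, the start regions were also fitted by themselves, among all annotated start regions of autosomal genes, a step added after the peaks had been examined.

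**Figure D3:**
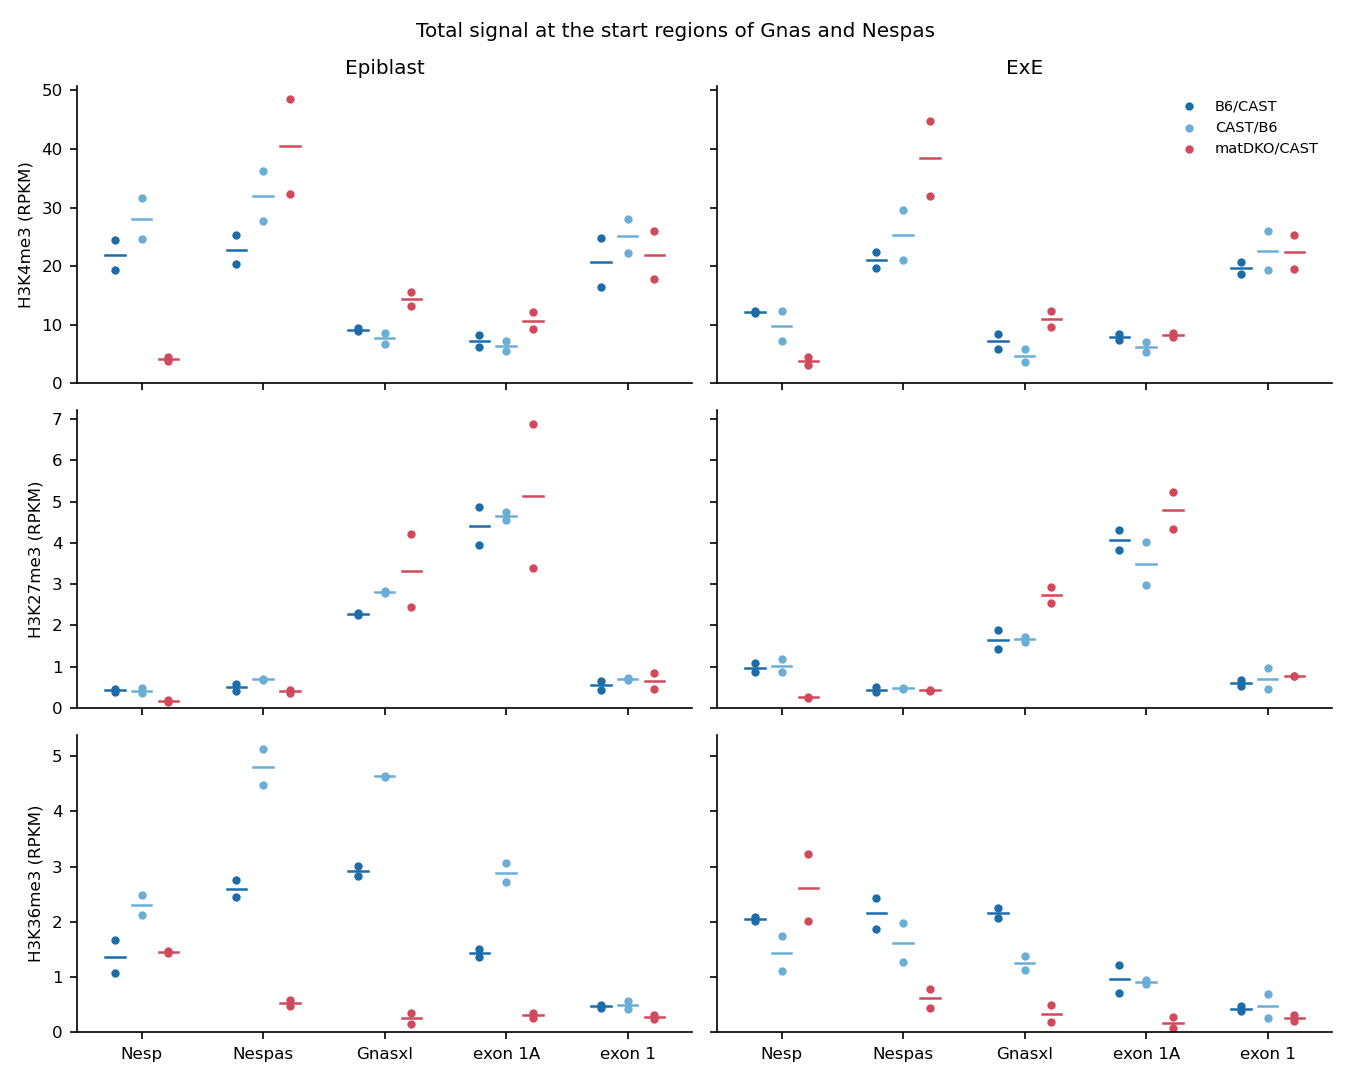
Total signal (RPKM) of each mark at the 5 main start regions, with 1 point per library, a bar at the mean of 2 libraries and colours by cross, in epiblast (left) and ExE (right). In matDKO/CAST, H3K4me3 at Nesp was 3.09 to 4.59 RPKM, below all wild-type libraries (7.21 to 31.7), and H3K36me3 at Gnasxl was 0.160 to 0.495 RPKM against 1.12 to 4.64.

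H3K4me3 at Nesp was lower in matDKO/CAST in both tissues. In epiblast it was 24.5 and 19.4 RPKM in B6/CAST, 31.7 and 24.6 in CAST/B6, and 4.59 and 3.81 in matDKO/CAST. The ExE values were 12 and 12.4, then 7.21 and 12.4, and then 3.09 and 4.45 RPKM in the same order of crosses. The matDKO/CAST libraries lay below every wild-type library of either tissue. The difference from B6/CAST was -2.25 ± 0.26 on the log2(RPKM + 0.5) scale in epiblast (limma adjusted p 1.35e-14) and -1.59 ± 0.26 in ExE (1.45e-06). In epiblast this amounts to 4.76-fold less. All start regions together were called at 0.296% in epiblast and 0.2% in ExE. When start regions with low signal were kept in the fit, the adjusted p rose to 0.0704 in epiblast and 0.374 in ExE.

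The neighbouring paternally active starts, whose regions share a window, had differences of the opposite sign. These did not pass the limma test against B6/CAST without a replicate block. At Nespas, the antisense start, H3K4me3 was 25.3 and 20.3 RPKM in B6/CAST epiblast and 48.5 and 32.4 in matDKO/CAST epiblast. ExE had 22.5 and 19.8 against 32.0 and 44.7. The differences were 0.79 ± 0.27 in epiblast (limma adjusted p 0.364) and 0.83 ± 0.27 in ExE (0.380), and edgeR on whole reads called both (0.82, adjusted p 0.00194, and 0.89, adjusted p 0.000319), against 0.0858% of all start regions in epiblast and 0.2% in ExE. At Gnasxl the values were 9.47 and 8.89 against 15.5 and 13.1 RPKM in epiblast and 8.51 and 5.89 against 9.67 and 12.4 in ExE. Those differences were 0.61 ± 0.26 and 0.59 ± 0.26 (limma adjusted p 0.851 and 1.00). Against both wild-type crosses together, limma called Gnasxl in epiblast (0.74, adjusted p 0.0358) and in ExE (0.88, 0.0199). Nespas and Gnasxl were higher in each matDKO/CAST library than in both B6/CAST libraries of the tissue, although Nespas overlapped CAST/B6 in epiblast (36.2 and 27.8 RPKM).

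In the limma fit without a replicate block, H3K4me3 at exon 1A and exon 1 was not called in matDKO/CAST. Exon 1A was 8.22 and 6.28 RPKM in B6/CAST epiblast and 12.1 and 9.30 in matDKO/CAST epiblast (0.53 ± 0.26, limma adjusted p 1.00). Exon 1 was 24.8 and 16.5 against 26.0 and 17.9 RPKM (0.09 ± 0.27, adjusted p 1.00), with overlapping libraries. In ExE the differences were 0.07 ± 0.26 at exon 1A and 0.17 ± 0.27 at exon 1 (both with limma adjusted p 1.00). Nesp and exon 1 are promoters of the same gene, and in every matDKO/CAST library exon 1 carried more H3K4me3 than Nesp (17.9 to 26.0 against 3.09 to 4.59 RPKM). The same order held in all 4 wild-type ExE libraries (18.7 to 26.0 against 7.21 to 12.4 RPKM) and in B6/CAST epiblast replicate 1 (24.8 against 24.5).

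H3K36me3 fell at the Nespas, Gnasxl and exon 1A starts of matDKO/CAST embryos in epiblast, and at Nespas and Gnasxl in ExE. At Gnasxl it was 2.82 and 3.02 RPKM in B6/CAST epiblast, 4.63 and 4.64 in CAST/B6 epiblast, and 0.160 and 0.356 in matDKO/CAST epiblast. The ExE libraries had 2.07 and 2.25, then 1.37 and 1.12, and then 0.495 and 0.187 RPKM. These matDKO/CAST values were within or below the range of the input there (0.270 to 0.677 RPKM). The difference from B6/CAST was -2.19 ± 0.25 in epiblast (limma adjusted p 3.90e-06) and -1.68 ± 0.25 in ExE (0.000341). At Nespas it was -1.58 ± 0.25 in epiblast (adjusted p 0.00134) and -1.26 ± 0.25 in ExE (0.0287). At exon 1A it was -1.25 ± 0.25 in epiblast (limma adjusted p 0.0460) and -1.11 ± 0.25 in ExE (0.0926, not called, and 0.0362 against both wild-type crosses). Only 0.0417% of start regions were called in epiblast, 9 of 21587, of which 3 belonged to this locus, and 0.0556% in ExE. The Nespas and Gnasxl regions share a window, so their calls rest in part on the same signal.

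At Nesp itself H3K36me3 was 1.67 and 1.07 RPKM in B6/CAST epiblast and 1.44 and 1.47 in matDKO/CAST epiblast, a difference of 0.08 ± 0.25 (limma adjusted p 0.941). ExE showed 2.01 and 2.08 against 2.01 and 3.23 RPKM (0.26 ± 0.25, 0.723). The internal starts near the end of Gnas were not called in either tissue (limma adjusted p 0.362 to 0.965). From the Gnasxl start to exon 1A, the mean H3K36me3 over 29 windows was 1.61 and 1.38 RPKM in B6/CAST epiblast against 0.396 and 0.455 in matDKO/CAST. From the Nesp start to the Gnasxl start, it was 2.91 and 2.15 against 1.06 and 1.15. Upstream of the Nespas end it was 1.93 and 1.50 against 1.46 and 2.02, and from exon 1 to the end of Gnas 2.06 and 1.46 against 1.49 and 1.14. In epiblast, matDKO/CAST lay below B6/CAST without overlap in the stretches from Nesp to Gnasxl and from Gnasxl to exon 1A, and the crosses overlapped in the other two. In ExE all 4 stretches separated matDKO/CAST from B6/CAST. From Gnasxl to exon 1A the ExE means were 1.16 and 1.41 against 0.328 and 0.374 RPKM, from Nesp to Gnasxl 2.47 and 2.38 against 1.47 and 1.92, and from exon 1 to the end of Gnas 1.95 and 2.08 against 1.47 and 1.49. Upstream of the Nespas end matDKO/CAST was the higher cross in ExE, with 2.43 and 3.06 against 2.27 and 2.01. The other wild-type cross, CAST/B6, had 1.72 and 1.78 RPKM from Nesp to Gnasxl in ExE, between the 2 matDKO/CAST values. These stretches were not tested.

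Several of the H3K36me3 calls depended on a single library, with 2 libraries on each side. Without B6/CAST epiblast replicate 1 or replicate 2 the epiblast call at Nespas was lost (limma adjusted p 0.110 and 0.0877), as it was without matDKO/CAST epiblast replicate 2 (0.0573). The ExE call at Gnasxl was lost without either B6/CAST ExE library (0.0581 and 0.0512), and the epiblast call at Gnasxl was kept in each of the 12 fits that left out a library. The ExE call at Nespas was lost without any 1 of the B6/CAST ExE libraries, the 4 CAST/B6 libraries or replicate 3 of matDKO/CAST ExE (limma adjusted p 0.0510 to 0.663). The epiblast call at exon 1A was lost without any 1 of the 8 wild-type libraries or matDKO/CAST epiblast replicate 2 (0.0670 to 0.610). With low-signal start regions kept in the fit, 1 of the 5 calls remained, Gnasxl in epiblast, and the others had limma adjusted p from 0.185 to 0.426.

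H3K27me3 in total fell at Nesp in matDKO/CAST ExE. It was 1.09 and 0.861 RPKM in B6/CAST, 1.19 and 0.866 in CAST/B6, and 0.276 and 0.242 in matDKO/CAST, with no overlap of matDKO/CAST and the other crosses. The matDKO/CAST values lay within the range of the input there (0.233 to 0.657 RPKM). The difference was -0.95 ± 0.21 (limma adjusted p 0.0212, against 0.0399% of start regions called in ExE). It was not called in 4 fits without a B6/CAST or matDKO/CAST ExE library (limma adjusted p 0.634 and 0.247 without B6/CAST replicates 1 and 2, 0.240 and 0.320 without matDKO/CAST replicates 2 and 3). With all libraries the call was also lost with low-signal start regions kept (limma adjusted p 0.874) and with a pseudocount of 0.1 (0.138). Epiblast Nesp carried 0.389 and 0.467 RPKM for B6/CAST against 0.144 and 0.204 for matDKO/CAST, where the difference of -0.46 ± 0.21 was not called (adjusted p 0.296, against 0.496% of start regions called in epiblast).

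In the limma fit Gnasxl and exon 1A had no called change in total H3K27me3, and the Nespas start, at 0.363 to 0.696 RPKM, was below the filter on low values and was not tested, whereas edgeR on whole reads called the merged Gnasxl peak higher in matDKO/CAST ExE (0.76, adjusted p 0.00681). Gnasxl was 2.24 and 2.31 RPKM in B6/CAST epiblast and 4.21 and 2.45 in matDKO/CAST epiblast (0.43 ± 0.26, limma adjusted p 0.458). ExE libraries carried 1.89 and 1.42 against 2.94 and 2.55 (0.60 ± 0.26, 0.865). Each matDKO/CAST library was above both B6/CAST libraries of its tissue, but in epiblast CAST/B6, with 2.79 and 2.84 RPKM, lay above matDKO/CAST replicate 2. Exon 1A was 3.94 and 4.86 against 6.87 and 3.40 RPKM in epiblast, where the groups overlapped, and 4.30 and 3.84 against 5.24 and 4.34 in ExE. Downstream of Gnas, in the 51 kb of the epiblast peak, H3K27me3 averaged 1.40 and 1.70 RPKM in B6/CAST epiblast, 1.67 and 1.30 in CAST/B6 and 0.729 and 0.693 in matDKO/CAST. The merged downstream peak was lower in matDKO/CAST epiblast by -0.68 ± 0.13 (limma adjusted p 0.0749), which edgeR on whole reads called (-1.10, adjusted p 1.55e-06). In ExE it was 1.09 and 1.05 against 0.879 and 0.797 RPKM (-0.23 ± 0.13, limma adjusted p 0.740).

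No start region of the locus had a matDKO/CAST effect that limma called as different between the tissues, where it called 0% of all start regions for H3K4me3, 0.0228% for H3K27me3 and 0% for H3K36me3. The absence of calls does not show that the effects were alike. For H3K4me3 at Nesp the difference of the effects was 0.66 ± 0.37 (limma unadjusted p 0.0701, adjusted p 1.00), and for H3K36me3 at Gnasxl it was 0.50 ± 0.35 (unadjusted p 0.159, adjusted p 0.632).

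The last comparison was between the tissues of wild-type embryos. H3K4me3 at Nesp was lower in ExE than in epiblast, with all 4 ExE libraries (7.21 to 12.4 RPKM) below all 4 epiblast libraries (19.4 to 31.7). The difference was -1.16 ± 0.18 (limma adjusted p 4.01e-09). The Nespas (-0.22 ± 0.19), exon 1A (0.06 ± 0.18) and exon 1 (-0.10 ± 0.19) starts were not called, while Gnasxl was lower in ExE by -0.51 ± 0.18 (adjusted p 0.0191). The Gnasxl call was lost without 4 of the 8 wild-type libraries in turn, replicate 1 of B6/CAST and replicate 2 of CAST/B6 in epiblast (limma adjusted p 0.0609 and 0.0939) and replicate 2 of B6/CAST and replicate 1 of CAST/B6 in ExE (0.199 and 0.214). Tissue differences were common, with 30.0% of all start regions called for H3K4me3, 50% for H3K27me3 and 26.2% for H3K36me3. Over merged peaks, 45.2%, 55.9% and 49.9% were called, and at the locus 2 of 4, 2 of 4 and 1 of 1.

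At the same Nesp start H3K27me3 was higher in ExE, at 0.861 to 1.19 RPKM against 0.351 to 0.472 in epiblast (0.70 ± 0.15, limma adjusted p 2.46e-05), although both are low beside Gnasxl and exon 1A. H3K27me3 at Gnasxl was lower in ExE (-0.49 ± 0.18, adjusted p 0.0163), a call that was lost without replicate 2 of B6/CAST ExE, CAST/B6 epiblast or CAST/B6 ExE (0.0981, 0.0528 and 0.0657). H3K36me3 was lower in ExE at Gnasxl (-0.96 ± 0.17, limma adjusted p 0.000724), exon 1A (-0.84 ± 0.18, 0.00251) and Nespas (-0.78 ± 0.18, 0.00341), and not at Nesp (-0.05 ± 0.18, 0.852). The crosses also differed in level, as Gnasxl H3K36me3 in epiblast was 2.82 and 3.02 RPKM in B6/CAST and 4.63 and 4.64 in CAST/B6, while in ExE B6/CAST was the higher cross. This difference between crosses was not tested.

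The H3K4me3 peak of the locus was set beside those of 17 other genes at loci with maternal germline methylation (16 peaks). Each gene was read at the H3K4me3 peak over its starts with the most allelic reads, which need not be the methylated site. The medians thus include peaks on the maternal side (Igf2r, 15.7% in B6/CAST and 12.4% in CAST/B6 ExE). They also include peaks near balance (Inpp5f, 52.6 and 48.4%). The median paternal share of those peaks was 90.0% in wild-type epiblast (range 5.37 to 99.4%) and 81.0% in wild-type ExE (8.05 to 98.5%). The Gnas and Nespas peak had pooled paternal shares of 56.3% in B6/CAST and 51.4% in CAST/B6 epiblast, and of 69.2% and 68.2% in ExE, nearer to balance than either median. In matDKO/CAST the list had medians of 50.4% and 50.8%, and the locus had 50.9% and 47.3%. In epiblast 10 of the 16 peaks were imprinted in both crosses (9 paternal and Grb10 maternal), and the difference between matDKO/CAST and B6/CAST was called at 10. In ExE 13 of 15 tested peaks were imprinted (11 paternal, with Grb10 and Igf2r maternal), and the difference was called at 11. The median joint log2 ratio of the list was 3.65 in epiblast and 2.08 in ExE, against 0.29 and 1.12 at the locus. The ratio nearest to that of the locus in ExE was 1.01 at Zrsr1.

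**Figure D4:**
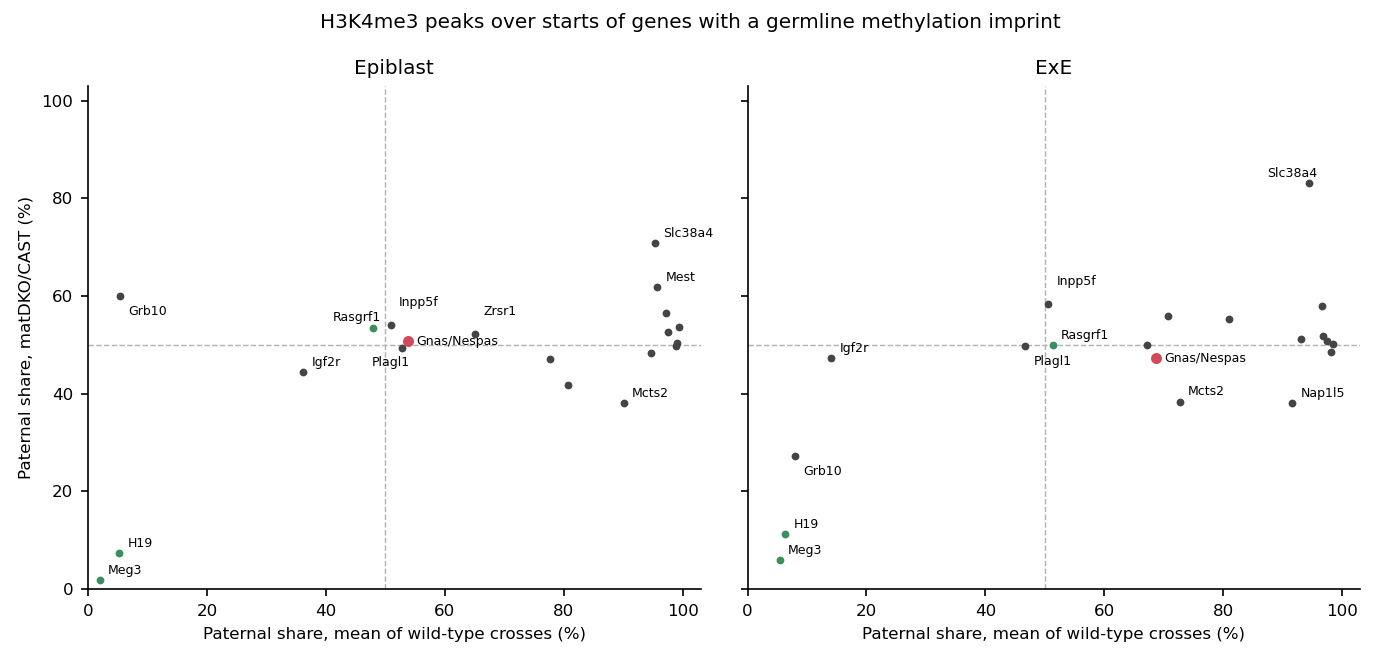
Paternal share (%) at H3K4me3 peaks over starts of genes with a germline methylation imprint, in matDKO/CAST (vertical) against the mean of the wild-type crosses (horizontal), with pooled reads of 2 libraries per cross, in epiblast (left) and ExE (right). Grey points stand for genes at loci with maternal germline methylation and green points for genes at loci with paternal germline methylation. The peak shown need not be the methylated site. The red point is the Gnas and Nespas peak, whose wild-type crosses had 51.4 and 56.3% in epiblast and 68.2 and 69.2% in ExE. Dashed lines mark 50%.

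Of all H3K4me3 peaks, the one whose log2 ratios over the 6 ExE libraries were closest to those of the locus was the peak at Zrsr1 and Commd1 (root mean square difference 0.181, against a median of 0.980 over 15460 peaks). It was followed by Zdbf2 (0.435) and by 3 peaks without an annotated start. In epiblast the 5 closest peaks, at Mylk, Gm11934 with Rngtt, Napg, Csgalnact1 and Eri3, had differences of 0.0849 to 0.126, against a median of 0.435 over 11890 peaks. Their paternal shares lay between 48.9 and 56.2% in the wild-type crosses, near balance like that of the locus.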

How the data were processed

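Trim Galore 0.4.4 and Bowtie2 2.3.2 are named in the submitters' processing notes. Native ChIP-seq reads were trimmed and aligned to a GRCm38 genome masked at strain differences, and were split by allele with SNPsplit, per the authors' methods. The authors called peaks with chromstaR and combined them between the reciprocal crosses of a tissue. For matDKO/CAST a second mapping pass added reads specific to the 129 strain to the maternal allele, which can change maternal counts there. The authors deposited maternal and paternal read counts per peak and RPKM values per 1 kb window, and also peak lists per group.

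Allelic counts were tested with edgeR 4.0.16 (quasi-likelihood, TMM) among autosomal peaks with at least 20 reads on 1 allele of a wild-type library, with the allele as the effect and, between crosses or tissues, an interaction term. Between tissues, each peak was paired with the peak of the other tissue that it overlapped most, and the paired intervals can differ in length. No allelic counts were pooled across libraries for a test. Total signal was tested with limma 3.58.1 (trend) on log2(RPKM + 0.5) over regions with a mean of at least 0.5 RPKM, so that a difference understates the change of weak regions. In each library 100% of low RPKM values were whole multiples of 1 read (tolerance 0.1 read), and edgeR on those reads was an alternative, as was DESeq2 1.42.0 for allelic counts. P-values were adjusted by the Benjamini-Hochberg method over all features of a test. Both scripts were tested on simulated data. Peak positions were taken from the start and end columns, since 17.9 to 28.3% of peak names in the 6 tables carry other coordinates.

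The members and gene lists were chosen with earlier results of these data known. The named regions were all peaks and start regions of the locus, 17 other genes at loci with maternal germline methylation and the 5 most similar H3K4me3 peaks per tissue, by root mean square difference of the log2 ratio. The fit over start regions was added after the data had been seen. Pools were replicates. The main fits did not pair libraries of different groups by replicate number. Deviations of same-numbered libraries correlated at -0.148 to 0.304 over 23 pairs, with 0.304 and 0.262 for H3K4me3 between wild-type epiblast and ExE of B6/CAST and CAST/B6. With 2 libraries per group, pairs of the same 2 groups repeat 1 value, so this check cannot settle whether the numbers pair. Alternatives were another tool, other filters, pseudocounts of 0.1 and 1, a stricter threshold of 0.01, both wild-type crosses as control, a replicate block and leaving out each library. Intervals and tests rest on allelic reads without molecular identifiers, and the spread between 2 libraries limits precision. Y, X and mitochondrial regions were not used here.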

Additional observations from a re-analysis of the deposited data

Results flagged for a closer look

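Differences in parental bias between the tissues were flagged for H3K27me3 and H3K36me3, each by the test of the difference itself. At the H3K27me3 peak downstream of Gnas, the log2 ratio of paternal to maternal reads was higher in ExE than in epiblast by 0.78 ± 0.13 (edgeR adjusted p 0.000161), as the maternal excess was smaller in each of the 4 wild-type ExE libraries than in any of the 4 epiblast libraries. Reads were counted over the peak of each tissue, 51 kb in epiblast and 66 kb in ExE, and the effect of the unequal intervals was not tested. At the H3K36me3 peak over the gene body the difference was 0.62 ± 0.12 (edgeR adjusted p 0.000665), and again no ExE library overlapped an epiblast library. The H3K36me3 difference was not called by DESeq2 (adjusted p 0.0615), or without B6/CAST epiblast replicate 2 (edgeR adjusted p 0.0597). Of the 7 visceral endoderm markers, 3 (Ttr, Apoa1 and Apob) were higher in every ExE library than in any epiblast library and 4 overlapped, and their part in either difference was not tested.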

How the results depend on the processing

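No value of the locus reversed its direction in a called result, and of 1734 alternative values of 127 single tested results 1633 kept their side of the threshold, 70 lost a call and 31 gained one. Of 391 alternative counts, 320 stayed within 1.5 times the main count. Under DESeq2, imprinted peaks numbered 4 for H3K27me3 and 0 for H3K36me3, peaks whose bias differed in matDKO/CAST numbered 3 for H3K27me3, and H3K36me3 had 0 peaks whose bias differed between tissues. At an adjusted p under 0.01, H3K36me3 had 0 imprinted peaks, total signal differed between tissues at 1 H3K4me3 and 1 H3K27me3 peak and at 1 start region for each of these marks, and matDKO/CAST start regions numbered 0 for H3K27me3 and 3 for H3K36me3. With the replicate block, which pairs the alleles of a library or the same-numbered libraries, 1 H3K4me3 peak differed in bias between tissues, 1 H3K4me3 peak differed in total signal between tissues, and 5 H3K4me3 start regions differed in matDKO/CAST, with Nespas, Gnasxl and exon 1A in epiblast added (limma adjusted p 1.23e-11, 0.00180 and 0.0456). That last block could be fitted only for H3K4me3 and H3K27me3 in epiblast, where groups shared at least 2 numbers. The share of all start regions that it called is not given here, so the count of 5 has no background. Against both wild-type crosses, total signal in matDKO/CAST differed at 2 H3K27me3 peaks and 1 H3K36me3 peak and at 4 H3K4me3 start regions. With edgeR on whole reads it differed at 3 H3K27me3 peaks, 1 H3K36me3 peak and 4 H3K4me3 start regions, and 5 H3K36me3 start regions differed between tissues. Without the filter on low values, start regions that differed between tissues numbered 1 for H3K4me3 and 1 for H3K27me3, and those that differed in matDKO/CAST numbered 0, 0 and 1 for H3K4me3, H3K27me3 and H3K36me3. With a pseudocount of 0.1 the last 2 were 0 and 3. The cause of these changes was not tested.

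Leaving out 1 library at a time, counts for H3K4me3, H3K27me3 and H3K36me3 ranged as follows. Imprinted peaks were 1 to 1, 6 to 7 and 0 to 1, and peaks whose bias differed in matDKO/CAST were 0 to 1, 3 to 5 and 0 to 0. Peaks whose bias differed between tissues were 0 to 1, 1 to 1 and 0 to 1. Peaks that differed in total signal between tissues were 1 to 2, 1 to 2 and 1 to 1, and those that differed in matDKO/CAST were 0 to 0, 0 to 2 and 0 to 0. Start regions that differed between tissues were 1 to 2, 1 to 2 and 3 to 3, and those that differed in matDKO/CAST were 2 to 2, 0 to 1 and 2 to 6. Dividing by the autosomal share moved 13 of 54 group shares by over 1 SD, by at most 4.91 percentage points, and took 5 across 50%. The Nesp H3K27me3 peak in ExE rests on at most 49 allelic reads per wild-type library.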
